A study of Schizosaccharomyces pombe with 2 samples.

Results

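The mitochondrial genome of the fission yeast Schizosaccharomyces pombe was followed on 2 tiling arrays with 61 probes whose names begin with mito, of 41551 non-control probes on each array. The names carry a position that runs from 0 to 19200 in steps of 300 bp. Of the 65 positions this gives, 61 held a probe, and those at 7200, 11400, 15600 and 15900 held none. The probe at 4500 was marked non-uniform by the scanner software in the Cy3 channel of the sap1-1 array, so 60 probes entered the medians and counts. Probe sequences were not used here, and none is shown.

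The arrays compared BrdU labelling in sap1-1 cells, of genotype cdc10-v50 sap1-1, with that in cells called wild-type, of genotype cdc10-v50. Both strains were in the 972h background and carried the cdc10-v50 allele, which allows arrest by heat, together with a thymidine kinase expressed from the nmt1 promoter and a nucleoside transporter, hENT, expressed from the adh1 promoter. Cultures were held at 35 °C for 4 h and then shifted to 26 °C in the presence of 200 µM BrdU and 10 mM hydroxyurea, and sodium azide was added to 0.1%. DNA precipitated with an antibody to BrdU carried Cy5, and the input, DNA of the whole-cell extract, carried Cy3. Each strain had 1 array, so no value has a replicate and no difference between the strains could be tested. An effect of the strain cannot be told apart from one of the culture, the precipitation or the array. Intervals are 95% order-statistic intervals of a median and cover the scatter of probes only.

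Mitochondrial DNA of fission yeast is a small genome present in many copies per cell. It encodes the RNAs of the mitochondrial ribosome, tRNAs, the RNA of mitochondrial RNase P, a ribosomal protein, cytochrome b and subunits of cytochrome c oxidase and of ATP synthase. It is copied by its own DNA polymerase, apart from the licensed origins of the chromosomes. Hydroxyurea inhibits ribonucleotide reductase, which makes deoxynucleotides for both genomes. Sap1 is known as an essential nuclear DNA-binding protein, with sites in the rDNA, in LTRs and at the mating-type locus.

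Mitochondrial probes were among the brightest of each array in input DNA. The centred log2 Cy3 signal, which is the log2 processed signal minus the median of its array, had a median of 3.85 in sap1-1 (interval 3.66 to 3.94) and 4.04 in wild-type (3.73 to 4.25) over the 60 probes. On the linear scale these medians stand 14.4-fold above the array median in sap1-1 and 16.5-fold above it in wild-type. Single probes lay between 2.21 and 4.93 in sap1-1 and between 2.03 and 5.12 in wild-type. All 60 probes were at 2 or more in both strains, as were 2.9% of all probes. The probes made up 0.144% of those used and held 1.57% of the Cy3 signal in sap1-1 and 1.73% in wild-type. In Cy5 they held 2.60% in sap1-1 and 1.78% in wild-type. No mitochondrial spot was saturated and all were well above background in both channels. A signal level depends on the affinity of each probe as well as on the amount of DNA, so these folds are brightness and not copies per cell.

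BrdU was measured as the log2 ratio of Cy5 to Cy3, centred on the median of the array. Over the mitochondrial probes its median was 1.20 in sap1-1 (interval 0.99 to 1.27) and 0.49 in wild-type (0.38 to 0.66), against -0.01 in each strain over 41240 chromosome tiles. The values of single probes ranged from 0.36 to 1.97 in sap1-1 and from -0.17 to 1.51 in wild-type. All 60 probes were above 0 in sap1-1 and 55 in wild-type, where 50% of all probes were by construction. A ratio of at least 1, or 2-fold above the array median, was reached by 38 probes in sap1-1 and by 7 in wild-type, and by 23.3% and 24.7% of all probes in those strains. The mitochondrial median stood above 81.7% of chromosome tiles in sap1-1 and above 63.8% in wild-type. None of the 60 probes used reached the level that 5% of chromosome tiles exceeded, which was 2.13 in sap1-1 and 2.27 in wild-type. The probe left out as non-uniform stood at 2.37 in sap1-1, above that level, and at 2.23 in wild-type, below it. With median centring, the 60 probes used thus lay in the middle and upper range of the chromosomes and below the tallest chromosomal peaks.

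The sign of these levels depends on how bright spots are treated. With a loess curve of ratio on brightness taken out of each array, the mitochondrial median became -0.61 in sap1-1 and -1.26 in wild-type. Relative to the median of chromosome tiles of the same GC content, the mitochondrial median was 0.63 in sap1-1 and 0.12 in wild-type.

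The ratio was higher in sap1-1 than in wild-type at every mitochondrial probe used, 60 of 60, while 44.3% of all probes were higher in sap1-1. The median of the differences, sap1-1 minus wild-type, was 0.63 (interval 0.53 to 0.71, a 1.55-fold change), with single probes between 0.27 and 1.01. When each array was centred on its mode, 37 of the 60 probes were higher in sap1-1 and the median difference was 0.092. With median centring, chromosome tiles had a median difference of -0.12, so the mitochondrial difference stood 0.75 above that of the chromosomes, a value that does not depend on where an array is centred. A difference of at least 1 upwards was reached by 1 mitochondrial probe and by 10.2% of all probes, and 1 or more downwards by 0 mitochondrial probes and by 17.1% of all probes. A difference of at least 0.5 was seen at 41 mitochondrial probes and at 23.3% of all probes. The mitochondrial genome moved by a moderate amount, and the SD of the difference was 0.19 over its probes and 0.96 over chromosome tiles. Over 35 tiles of the nuclear rRNA genes this SD was 0.25, so a small scatter was not particular to the mitochondrial genome.

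The difference in ratio was then read in each channel. Immunoprecipitated DNA (centred log2 Cy5) had a mitochondrial median of 5.11 in sap1-1 and 4.58 in wild-type. It was higher in sap1-1 at 60 of 60 probes, by 0.06 to 1.08 with a median of 0.51, and 43.4% of all probes were higher. Input DNA (centred log2 Cy3) was lower in sap1-1 at 39 of 60 probes, where 51.7% of all probes were lower. The median input difference was -0.11 (interval -0.19 to -0.01), with single probes from -0.64 to 0.44. With median centring the precipitated DNA thus differed by more than the input. Set against the mean input of both arrays, the median difference in ratio was 0.53. When each array was centred on its mode, the median difference was 0.092 in ratio and -0.079 in input. The Cy5 difference was not computed with that centring.

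The difference varied with the brightness of the probe. In the 20 probes with the lowest mean Cy3, the ratio difference had a median of 0.73 and the Cy5 difference one of 0.78. In the 20 middle probes these medians were 0.67 and 0.53. In the 20 brightest probes they were 0.48 and 0.35. The Cy3 difference ran the same way, with medians of 0.11, -0.14 and -0.22 from the dimmest to the brightest probes. Over the 60 probes the ratio difference and the mean Cy3 had a Pearson's r of -0.42 and a Spearman's rho of -0.44, and the Cy3 difference and the mean Cy3 an r of -0.60 and a rho of -0.60. The Cy5 difference and the mean Cy5 had a Pearson's r of -0.89 and a Spearman's rho of -0.89, as a description across probes that share arrays and DNA. Over 40462 placed chromosome tiles these r were 0.02, -0.13 and 0.11. The part of brightness in the mitochondrial difference was not tested.

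Chromosome tiles with a mean Cy3 in the mitochondrial range were mostly lower in sap1-1, as were chromosome tiles as a whole. There were 933 such tiles. Their median Cy3 was 2.51 in each strain, against 3.85 in sap1-1 and 4.04 in wild-type for mitochondrial probes, so as a set they were dimmer. Their median ratio difference was -0.17, near the -0.12 of all chromosome tiles. Of them 339 were above 0, where 44.3% of all probes were. At or above the median Cy3 of the mitochondrial probes there were 58 chromosome tiles. Their median ratio was -1.43 in sap1-1 and -0.51 in wild-type, and the median difference was -0.87, with 3 of them above 0. Of these tiles 29 lay over the nuclear rRNA genes. The other 29 had a median ratio of -1.23 in sap1-1 and -0.99 in wild-type, and a median difference of -0.32, with 3 above 0. No replicate allowed a test of this contrast.

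The nuclear rRNA genes, which are tandem repeats, and plasmid clones gave other values. The rRNA tiles (35 tiles of chromosome III, of which 29 are among the bright tiles above) had an input signal of 4.92 in sap1-1 and 4.66 in wild-type, in the median. Their median ratio was -1.51 in sap1-1 and -0.35 in wild-type, and the ratio was higher in sap1-1 at 0 of 35 tiles, with a median difference of -0.996. Probes of the pNSU plasmid clones (129 probes) had median ratios of 2.50 in sap1-1 and 2.08 in wild-type, with a median difference of 0.35 and 100 of them above 0. Their median input was 1.82 in sap1-1 and 1.89 in wild-type. Both nuclear rRNA genes and mitochondrial DNA were bright in input, and their ratios moved in opposite directions between these arrays. The rRNA tiles had a median GC content of 46.3% and the mitochondrial tiles 30%, in the reference sequence, and the part of base composition was not tested.

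The profile along the mitochondrial genome had the same shape in both strains. Over the 60 probes the ratios of sap1-1 and of wild-type had a Pearson's r of 0.88 and a Spearman's rho of 0.87, as a description. Neighbouring probes 300 bp apart differed with an SD of 0.46 in sap1-1 and 0.45 in wild-type. The SD over all 60 probes was 0.39 in sap1-1 and 0.41 in wild-type. The SD of a difference carries the scatter of both its probes, so it is not directly comparable with the SD over probes. On chromosome tiles the SD of neighbours was 1.02 in sap1-1 and 0.60 in wild-type. In 3 sets of 20 probes along the genome the median ratio was 1.17, 1.06 and 1.22 in sap1-1, and 0.41, 0.64 and 0.57 in wild-type, for positions 0 to 6000, 6300 to 12600 and 12900 to 19200. The median difference in these sets was 0.73, 0.57 and 0.58. Medians of 20 probes vary less than single probes by averaging alone, so the sets cannot be weighed against the differences between neighbours. Probes with the suffix r in their name, which the labels do not explain, had median differences of 0.63 (29 probes), and those without it 0.61 (31 probes).

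To read the profile by gene, the probes were placed on the mitochondrial sequence of the RefSeq assembly ASM294v3, which is 19433 bp long. A model of signal on local GC content, made on chromosome tiles, was slid around that sequence. The mean correlation of predicted with measured values over both strains, Cy3 and ratio was highest at an offset of -40 bp, at 0.42. It was 0.41 at an offset of 0, against 0.28 at most for offsets more than 600 bp away and -0.01 in the median of all offsets. Names were therefore read as positions on the reference. These values set the best offset apart from those more than 600 bp away and do not fix the placement more closely. Each tile of 300 bp was given to the kind of feature that covers more of it than any other.

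The ribosomal RNA genes, at the start of the numbering, were close to the mitochondrial median. The 10 tiles of rnl, the gene of the large ribosomal RNA, had ratios of 0.73 to 1.70 in sap1-1 (median 1.14) and of -0.01 to 0.75 in wild-type (median 0.34). The first tile, at 0, stood at 1.70 in sap1-1 and 0.73 in wild-type, a difference of 0.97, and the tile at 600 at 1.43 in sap1-1 and 0.43 in wild-type, a difference of 1.00. These were among the 3 largest differences of the genome. The 5 tiles of rns, the gene of the small ribosomal RNA, had median ratios of 0.93 in sap1-1 and 0.45 in wild-type. The tiles at 3300 and 3600 within rns were low, at 0.71 and 0.62 in sap1-1 and at -0.02 and 0.04 in wild-type. Both strains thus shared these low values, which were not particular to rns. The rnl tiles at 1800 and 2400 stood at 0.74 and 0.73 in sap1-1 and at 0.01 and -0.01 in wild-type. The difference over the 15 rRNA tiles had a median of 0.73.

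tRNA genes are too short to fill a tile, and 4 tiles were mostly tRNA. In the cluster that follows cob, the tile at 14100 (trnF and neighbours) stood at 0.53 in sap1-1 and 0.04 in wild-type. The next tile, at 14400 (trnL, trnW), stood at 0.45 in sap1-1 and 0.03 in wild-type, the second lowest mean of both strains. The tRNA tiles at 17100 and 17400 were higher, at 1.67 and 1.33 in sap1-1 and at 1.03 and 0.85 in wild-type. The tRNA tiles were therefore not alike. The 2 tiles of rnpB, which encodes the RNA of mitochondrial RNase P, had ratios of 0.54 and 1.23 in sap1-1 and of 0.12 and 0.66 in wild-type. The 2 tiles of rps3, the only ribosomal protein gene of this genome in the reference, had 1.31 and 1.72 in sap1-1 and 0.52 and 1.00 in wild-type.

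Cytochrome c oxidase subunits are encoded by cox1, cox2 and cox3. The 6 exon tiles of cox1 spanned nearly the whole range of the genome. The tile at 4800, which holds its start, had 1.84 in sap1-1 and 1.13 in wild-type, the second highest mean of both strains. The tile at 8400, in the last exon, had 0.36 in sap1-1 and -0.17 in wild-type, the lowest. The tile at 6600, in the exon between both intron frames, had 0.91 in sap1-1 and 0.64 in wild-type, and its difference of 0.27 was the smallest found. The 3 tiles of cox3 had ratios of 1.22, 1.66 and 1.62 in sap1-1 and of 0.85, 1.28 and 1.28 in wild-type, for positions 9000, 9300 and 9600, with the tile at 9000 close to the mitochondrial median in sap1-1. Their differences were small for this genome, between 0.33 and 0.38. The 2 tiles of cox2 had 1.44 and 1.01 in sap1-1 and 0.93 and 0.26 in wild-type.

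Cytochrome b, the mitochondrially encoded subunit of respiratory complex III, is the product of cob, whose intron carries the long reading frame cob-I1. The 4 exon tiles had ratios of 1.19 to 1.73 in sap1-1 and of 0.48 to 1.18 in wild-type. The 7 tiles of cob-I1 had 0.60 to 0.99 in sap1-1 and -0.14 to 0.30 in wild-type. As placed, the exon and intron tiles of cob did not overlap in either strain. Their medians were 1.43 and 0.70 in sap1-1 and 0.87 and 0.05 in wild-type. The tile at 13200, counted as exon, held 116 bases of cob exon. The placement was not fixed closely enough to settle which border tiles are exon and which intron. How often neighbouring sets of 4 and 7 tiles separate in this way was not tested. Near the first exon border, as placed, the step was sharp. The exon tile at 10500 had 1.62 in sap1-1 and 1.18 in wild-type. The next, at 10800 and mostly intron, had 0.74 in sap1-1 and 0.09 in wild-type. The difference between the strains was alike on both sides, with medians of 0.58 over the exon tiles and 0.66 over the intron tiles. The first 2 intron tiles were the richest in GC of the genome (41.3% and 40%). Over all 60 tiles the ratio and GC content had an r of -0.43 in sap1-1 and -0.37 in wild-type, as a description. The placement was accepted on a fit of GC content to these same signals, so some correlation was favoured in advance. The part of base composition in this step was not tested.

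ATP synthase subunits are encoded by atp6, atp8 and atp9, which together took 5 tiles. The 3 tiles of atp6 had ratios of 1.39, 1.31 and 1.21 in sap1-1 and of 0.80, 0.97 and 0.62 in wild-type. The tile of atp8 had 0.91 in sap1-1 and 0.18 in wild-type, and that of atp9 had 0.76 in sap1-1 and 0.14 in wild-type. These genes held some of the dimmest tiles of the genome in input DNA. The atp8 tile, at 16800, had a centred Cy3 of 2.26 in sap1-1 and 2.03 in wild-type, and the last atp6 tile, at 15300, had 2.39 in sap1-1 and 2.12 in wild-type. Over the 5 tiles the median input difference was 0.24, upwards in sap1-1, where the genome as a whole gave -0.11. Over the 20 dimmest probes of the genome it was also upwards, with a median of 0.11 and 16 probes above 0. The part of brightness in the value of these genes was not tested.

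The frames inside the introns of cox1 had higher ratios than that of cob. In fungal mitochondria such frames encode maturases, endonucleases or reverse transcriptases. The 4 tiles of cox1-I1b had median ratios of 1.14 in sap1-1 and 0.44 in wild-type, and the 2 tiles of cox1-I2b had 1.77 in sap1-1 and 0.84 in wild-type. The tile at 5700 within cox1-I1b had 1.51 in sap1-1 and 0.50 in wild-type. Its difference of 1.01 was the largest of the genome and the only one of 2-fold or more. This tile was also the poorest in GC (21%) and the second dimmest in input, with a Cy3 of 2.21 in sap1-1 and 2.19 in wild-type. The tile at 6300, at the end of the same frame, was the brightest of the genome, at 4.93 in sap1-1 and 5.12 in wild-type, and its ratio difference was 0.46. By the mean of both strains, tiles at 8100 (cox1) and 10500 (cob) came next, with a Cy3 of 4.89 and 4.80 in sap1-1 and of 5.04 and 5.12 in wild-type.

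The highest mean of both strains among the 60 probes was at 9900, mostly between trnT and the start of cob, with 1.97 in sap1-1 and 1.51 in wild-type. It sat inside a stretch of 6 tiles from 9000 to 10500, over cox3 and the first exon of cob. Their ratios ran from 1.22 to 1.97 in sap1-1 and from 0.82 to 1.51 in wild-type. All were above the mitochondrial median of the strain, 1.20 in sap1-1 and 0.49 in wild-type, but the tile at 9000 only narrowly in sap1-1. This stretch was chosen after its values were seen. In total 4 of the 60 tiles had more bases outside any annotated feature than in any 1 kind of feature. In the tile at 19200 these were 124 bases. The 4 tiles had median ratios of 1.48 in sap1-1 and 0.94 in wild-type. The last tile, at 19200, was the lowest of these, at 1.22 in sap1-1 and 0.42 in wild-type. The probe left out as non-uniform, at 4500 between rns and the start of cox1, had a ratio of 2.37 in sap1-1 and 2.23 in wild-type, above every other mitochondrial probe on both arrays, and a difference of 0.14. Its mark concerns the sap1-1 array, so the wild-type value stands without one.

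Short stretches of mitochondrial sequence also occur in the chromosomes of the reference. Of the 60 tiles, 4 shared at least 1 word of 30 bases with a chromosome on either strand. They lay at 1500 and 2400 (rnl), 7500 (cox1-I2b) and 18600 (cox2). Without them the median ratio was 1.20 in sap1-1 and 0.49 in wild-type, the median difference in ratio was 0.62, and the median difference in input was -0.11. The medians were thus nearly the same without these 4 tiles. Leaving out 4 of 60 can move a median little, so this does not show how much the chromosomal stretches add at those tiles.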

How the data were processed

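BrdU-precipitated DNA (Cy5) and input DNA (Cy3) of 2 strains were measured on 1 two-colour Agilent array each. Feature Extraction 10.7.3.1, the scanner software from Agilent named in the file headers, read 42968 spots. Per the file headers it subtracted background and multiplied each channel by a linear dye factor, and lowess was off. The intensity columns used were the processed signals as deposited, which are linear. The authors' deposited log10 ratio matched processed Cy5 over Cy3 to within 3.91e-07. No label or header names a genome build for the tile positions.

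Spots marked as outliers on either array (12) were left out. Log2 values were centred on the median of the 41539 probes left. A call was a difference of at least 1 (2-fold), since 1 array per strain allows no test. Alternatives used limma 3.58.1 in R 4.3.3, with normexp (offset 50) and loess (span 0.3), and otherwise numpy 2.4.6, pandas 2.3.3 and scipy 1.17.1. The code for placement and medians was run on simulated data. For placement these data came from the same GC model, with independent noise for each signal. They check the code and not how well the real probes were placed. Arrays give no read depth, and their number limits the precision.

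Named probes were the 3 highest and 3 lowest in mean ratio, in ratio difference and in mean Cy3, the first and last, and every annotated gene. Members, gene groups and alternatives were chosen with earlier results of these data known.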

Additional observations from a re-analysis of the deposited data

How the results depend on the processing

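Of the alternatives to the processing, centring on the mode mattered most for the comparison of strains. It took the median difference in ratio to 0.092, with 37 of 60 probes above 0, and the wild-type median ratio to 0.93. The same centring moved the median difference of chromosome tiles to -0.66. The difference over that of chromosome tiles lay between 0.65 and 0.76, with 0.65 for the mean input of both arrays. It was not computed relative to tiles of the same GC content. Under the other alternatives the median difference lay between 0.53 and 0.67. Loess within arrays turned the median ratios to -0.61 in sap1-1 and -1.26 in wild-type. With normexp background correction of the median spot signals they were 0.82 in sap1-1 and 0.21 in wild-type, and the median Cy3 was 4.25 in sap1-1 and 4.36 in wild-type. Relative to chromosome tiles of the same GC content the median ratios were 0.63 in sap1-1 and 0.12 in wild-type, and the median Cy3 was 4.68 in sap1-1 and 4.75 in wild-type. The cause of these shifts was not tested. The count of probes with a 2-fold difference, 1 as reported, was 0 with mode centring and with normexp, 2 with loess and without background correction, 3 relative to tiles of the same GC content, 4 with quantile scaling and with the mean input of both arrays, and 35 at 1.5-fold. Keeping the non-uniform probe, leaving out tiles with sequence shared with the chromosomes and setting the rRNA tiles apart were chosen after seeing the data. No paired analysis was possible because each strain has 1 array.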
